A study of Mus musculus with 6 samples.

Results

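The mitotic spindle and kinetochore genes were examined as a group of 54 genes, chosen by symbol from a list of cell division genes. They were chosen with earlier results of these data known, and all were found among the 14608 genes of each deposited table. RNA-seq libraries were made from CD4+YFP+ regulatory T (Treg) cells sorted from mouse spleen after red cell lysis and enrichment of CD4+ cells, a CD4 T cell type known for suppressing other immune cells. There were 2 libraries from wild-type (WT) mice, 2 from mice labelled heterozygous for a Cdc42 knockout (Cdc42+/-) and 2 from mice labelled homozygous for it (Cdc42-/-). No treatment was given in the labels, and the age, strain, knockout allele and the promoter behind YFP are not given in the sources used here. The study asked how Treg gene expression differs when the small GTPase Cdc42, a regulator of actin and cell polarity, is lost.

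A dividing cell condenses its chromosomes with condensin, builds a bipolar spindle with kinesin motors and microtubule-binding proteins, and attaches each chromosome to it through the kinetochore, which sits on the centromere. The spindle checkpoint holds the anaphase-promoting complex in check until the attachments are made. Sister chromatids are then released by separase and the cell is split by the cytokinesis machinery. Most of these genes are transcribed late in the cell cycle and are low in resting lymphocytes, and many have promoters with a cell cycle genes homology region (CHR), to which the MuvB complex binds, and CCAAT boxes, to which NF-Y binds.

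The promoter sequences of the group were taken from RefSeq (GRCm38.p6, the build named mm10 in the submitters' processing notes), with 250 bases before and 50 after each annotated start. By gene ID, 47 of the 54 genes had such a promoter window, with 52 windows in all. CHR letters (TTTGAA or TTCGAA, on either strand) were in 38 of the 52 windows, 73.1%, against 19.2% of the 32851 windows of all genes. CCAAT, on either strand, was also in 38 of 52, 73.1%, against 37.4%. Both motifs, which were allowed to overlap, were in 33 windows, 63.5%, against 7.52% of all windows. The median GC content was 59.0% in the members' windows and 52.7% in all. Windows were drawn at every annotated start, so some genes have several. These matches are descriptions of letters in a window, not of bound sites.

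The stretches that follow show what these windows look like, each the 150 bases before the start, in lower case with CHR and CCAAT letters in capitals. They come from the members for which these bases lie in no annotated gene: the 4 of these with the largest fitted log2 fold change of (RPKM + 1) between Cdc42-/- and WT, given further below, followed by the 2 with the smallest.

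Kif11, chr19:37376232-37376381, plus strand: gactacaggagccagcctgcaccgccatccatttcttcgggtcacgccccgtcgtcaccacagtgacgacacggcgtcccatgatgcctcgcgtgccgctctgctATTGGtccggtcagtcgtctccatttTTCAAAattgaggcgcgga
Cdc20, chr4:118437344-118437493, minus strand: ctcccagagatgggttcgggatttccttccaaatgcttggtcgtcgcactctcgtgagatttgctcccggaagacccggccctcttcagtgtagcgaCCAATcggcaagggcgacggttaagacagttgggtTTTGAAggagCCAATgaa
Ube2c, chr2:164769779-164769928, plus strand: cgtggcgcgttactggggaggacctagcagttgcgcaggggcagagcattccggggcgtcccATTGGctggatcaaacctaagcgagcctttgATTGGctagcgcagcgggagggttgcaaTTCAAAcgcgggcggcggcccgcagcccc
Bub1, chr2:127831860-127832009, minus strand: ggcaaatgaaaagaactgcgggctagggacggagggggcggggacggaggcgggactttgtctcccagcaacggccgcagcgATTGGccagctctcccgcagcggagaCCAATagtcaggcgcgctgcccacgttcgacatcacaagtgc
Mad2l1, chr6:66535071-66535220, plus strand: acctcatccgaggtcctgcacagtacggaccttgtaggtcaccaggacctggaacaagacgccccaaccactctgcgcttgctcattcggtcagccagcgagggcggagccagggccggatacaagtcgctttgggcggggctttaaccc
Plk4, chr3:40799801-40799950, plus strand: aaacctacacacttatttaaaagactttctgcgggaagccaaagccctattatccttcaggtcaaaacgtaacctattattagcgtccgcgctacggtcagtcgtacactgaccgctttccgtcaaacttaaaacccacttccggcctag

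The CHR letters of Kif11, Cdc20 and Ube2c begin 19, 18 and 29 bases before the start. Over all member windows, CHR letters lay within the 60 bases before the start in only 10 of 52, 19.2%, against 3.37% of all windows. In Bub1 the CHR letters of the window lie outside the stretch shown, and the windows of Mad2l1 and Plk4 hold neither motif. Letters and change did not go together without exception: Nusap1, Nuf2, Birc5 and Ncaph, with log2 fold changes of 3.06 to 3.26, hold neither motif in their windows, whereas Bub3, with a change of 0.69, holds both.

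Libraries held between 8556576 and 17796100 reads in genes. Cdc42 itself was at 166 and 161 RPKM (reads per kilobase of gene, scaled to library depth) in WT, 164 and 156 RPKM in Cdc42+/- mice and 122 and 173 RPKM in Cdc42-/- mice, with overlap between Cdc42-/- and the others (log2 fold change -0.17 against WT, limma adjusted p 0.550, 0.0166 to 0.765 over the alternatives). The whole-gene level thus did not separate the genotypes, which are those of the labels throughout. The deleted part of the gene is not given in the sources used here. Replicate 2 of Cdc42-/- stood apart from the other libraries. The summed level of 9 measured myeloid markers was 1381 RPKM in it and between 40.7 and 69.2 RPKM in the other 5 libraries, that of 7 granulocyte markers 519 RPKM against 15.5 to 57.1 RPKM, and that of 5 erythroid markers 37.2 RPKM against 1.17 to 7.23 RPKM. Of the markers listed for these cell types, 9 of 10 myeloid, 7 of 8 granulocyte and 5 of 11 erythroid ones were measured. None of those measured was at 0 in this library, and their part in the levels below was not tested. The sum of 7 Treg and CD4 T cell markers was 909 RPKM in it, against 1167 to 1395 RPKM in the others. Sex-linked genes also differed: Xist was at 0.199 and 1.13 RPKM in WT mice, 99.3 and 93.3 RPKM in Cdc42+/- mice, and 87.4 and 21.2 RPKM in Cdc42-/- mice, while the Y-linked gene Ddx3y was at 37.7 and 42.4, 0.126 and 0, and 0.0974 and 27.5 RPKM. Genotype and sex-linked expression cannot be told apart between WT and Cdc42+/-, nor between WT and Cdc42-/- replicate 1. Replicate 2 of Cdc42-/- had both Xist and Ddx3y, so genotype and sex-linked expression also go partly together in Cdc42-/- against WT. In the group of 54 genes only Kif4 lies on the X chromosome.

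Levels of most spindle and kinetochore genes were lowest in WT, intermediate in Cdc42+/- and highest in Cdc42-/-. The median over the 54 genes was 2.56 and 2.47 RPKM in WT mice, 6.71 and 5.54 RPKM in Cdc42+/- mice, and 19.0 and 28.6 RPKM in Cdc42-/- mice. The genes took 0.228% and 0.240% of all reads in WT mice, 0.328% and 0.300% in Cdc42+/- mice, and 0.701% and 0.897% in Cdc42-/- mice. Libraries of different genotypes did not overlap in either measure. In 49 of the 54 genes every WT library lay below every Cdc42+/- library, and every Cdc42+/- library below every Cdc42-/- library, an order seen in 8.25% of the 12233 genes tested. At least 5 RPKM was reached by 13 genes in each WT library, by 36 and 31 genes in Cdc42+/-, and by 53 and 54 genes in Cdc42-/-. In bulk RNA, more dividing cells and more RNA per dividing cell cannot be told apart.

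**Figure D1:**
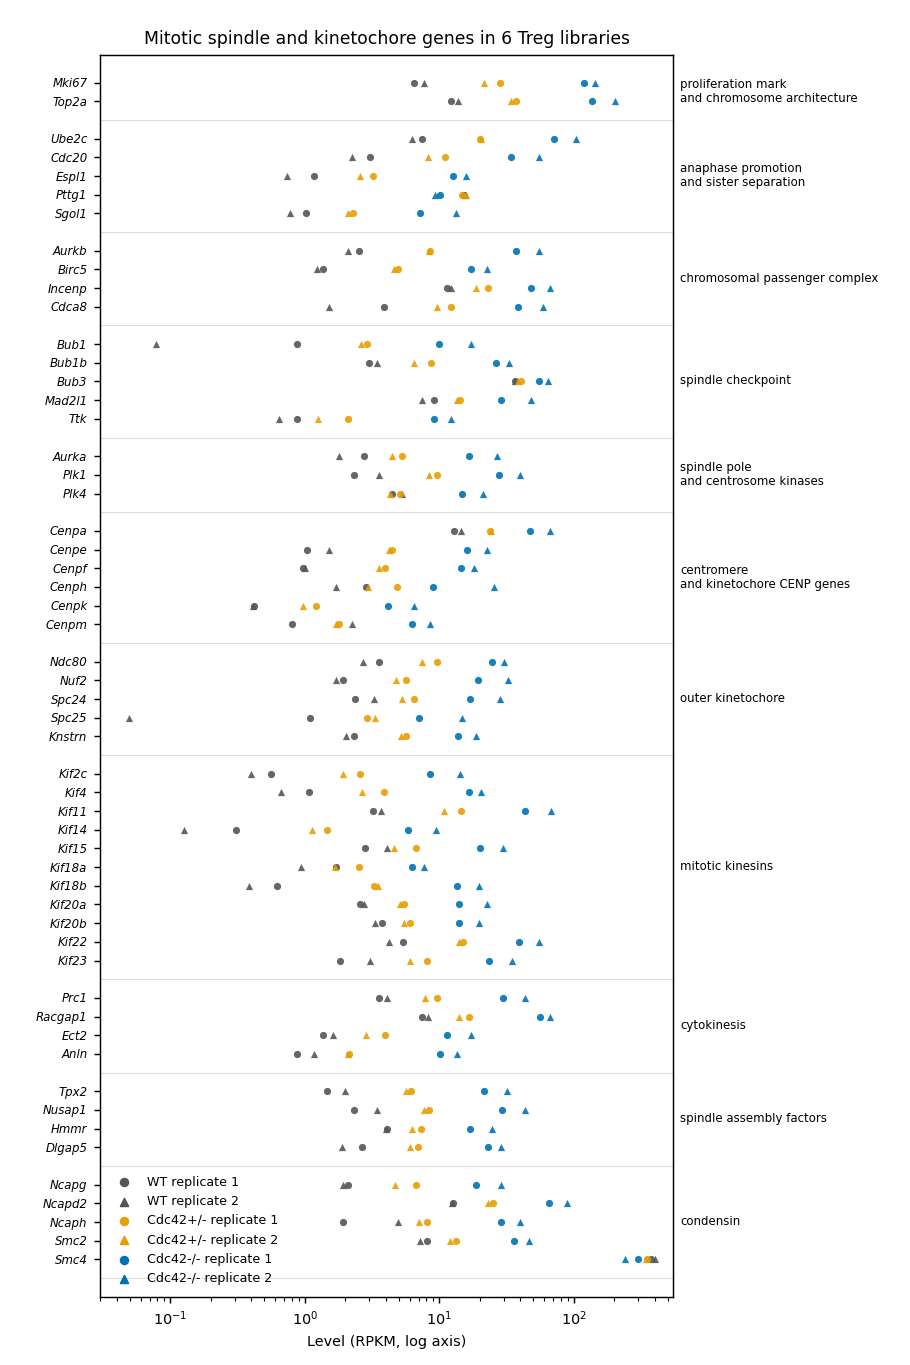
Level of each of the 54 genes in RPKM on a log axis, by functional role, with 1 point per library (circles replicate 1, triangles replicate 2, colour by genotype). In 49 genes the WT, Cdc42+/- and Cdc42-/- points follow each other without overlap, and Smc4 and Pttg1 run the other way in Cdc42-/-.

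Changes were fitted with limma on log2(RPKM + 1) in 1 model of the 6 libraries, a scale that understates the change of low genes, with p-values adjusted over all 12233 genes tested and a threshold of 0.05. All 54 genes passed the filter on low values. Against WT, 52 genes rose in Cdc42-/- and 1, Pttg1, fell, where 11.4% of all genes tested passed, 6.86% higher and 4.57% lower. Their median log2 fold change was 2.83, against 0.01 over all genes tested. Against Cdc42+/-, 50 rose and Pttg1 fell, where 8.22% of all genes passed, 4.68% higher and 3.54% lower, with a median of 1.85 against -0.01 over all genes. These comparisons share the Cdc42-/- libraries. In both, 52 members had every Cdc42-/- library above, where 28.9% of all genes did against WT and 28.6% against Cdc42+/-, and 2 had every one below, where 27.1% and 30.4% did. Without replicate 2 of Cdc42-/-, with the lone library assumed to vary like the other groups, 52 genes rose against WT and 50 against Cdc42+/-, where 18.5% and 14.9% of all genes passed in either direction. The second of these comparisons was among libraries that all had high Xist and Ddx3y near 0. In the first, against WT, the remaining Cdc42-/- library differed from WT in both genes. The count of 50 against Cdc42+/- in the fit of all libraries rested on both Cdc42+/- libraries: with either left out, no gene of the 12233 passed, although 52 of the 54 members still had an unadjusted p under 0.05, as did 14.2% of all genes without Cdc42+/- replicate 1 and 13.4% without replicate 2. It was 32 and 33 with WT replicate 1 or 2 left out, where 2.13% and 2.27% of all genes passed. Against WT, 43 and 44 members passed without WT replicate 1 or 2, where 2.12% and 2.14% of all genes did: Pttg1, Bub3, Plk4, Kif18a, Cenph, Cenpk, Mad2l1 and Sgol1 lost their calls in either case, Cenpm and Kif15 without replicate 1 and Spc25 without replicate 2.

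**Figure D2:**
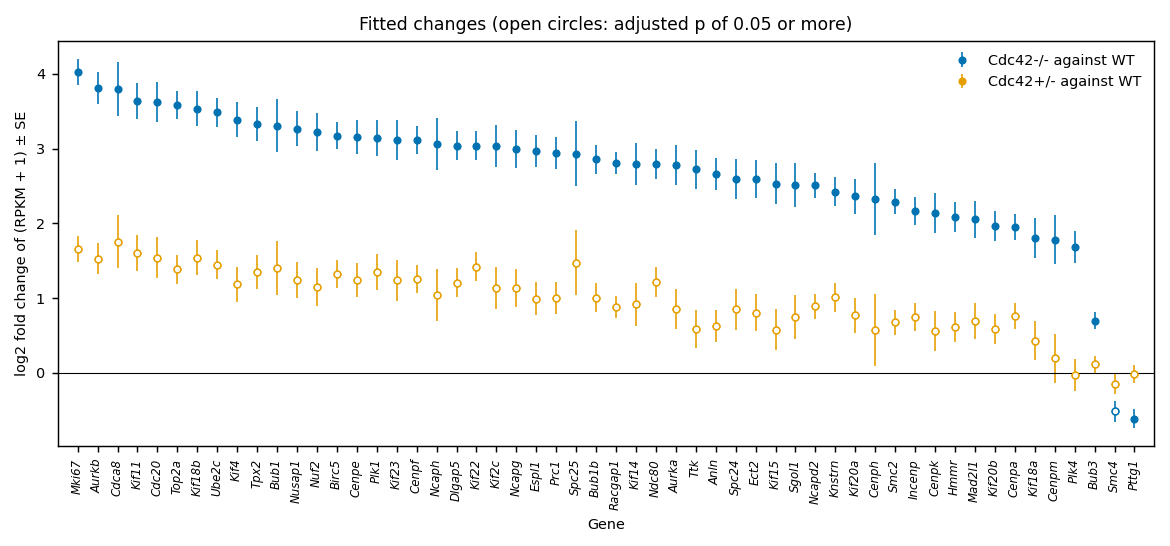
Fitted log2 fold change of (RPKM + 1) with its standard error for each of the 54 genes, ordered by the change in Cdc42-/- against WT (blue) and beside that in Cdc42+/- against WT (orange), which share the WT libraries. Open circles did not pass an adjusted p of 0.05. The changes run from 4.02 for Mki67 to -0.61 for Pttg1 in Cdc42-/- mice, and no orange point is filled.

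In Cdc42+/- against WT, no member passed (limma, smallest adjusted p 0.206), and 0% of all genes tested did. At an unadjusted p under 0.05 there were 44 members, all higher in Cdc42+/-, where 4.32% of all genes had such a p and 3.16% were also higher. A log2 fold change above 0 was found for 51 members and for 56.6% of all genes. The median was 1.01, against 0.03 over all genes, and 49 members had both Cdc42+/- libraries above both WT libraries, as did 26.2% of all genes, and 1, Smc4, had both below, as did 17% of all genes. The count differed between settings: 11 members passed with only the WT and Cdc42+/- libraries and 23 with limma's array weights, where 0.49% and 0.719% of all genes passed. Why it differed was not tested. With voom on the recovered reads no member passed, where 0.00817% of all genes did. The authors' deposited table lists 39 members as higher with an adjusted p under 0.05, where 1.72% of its genes were, and 0 as lower, where 0.561% were. For Cdc42-/- against WT the authors' deposited table lists 50 members as higher, where 6% of its genes were, and 0 as lower, where 2.66% were, with Bub3, Cenpm, Pttg1 and Smc4 short of the threshold. In the limma fit of Cdc42+/- against WT, the smallest unadjusted p belonged to Mki67 (log2 fold change 1.66, SE 0.18), Ube2c (1.44) and Kif22 (1.42), a kinesin that moves chromosome arms.

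Mki67, which coats mitotic chromosomes and is the standard mark of cycling cells, was at 6.53 and 7.73 RPKM in WT mice, 28.0 and 21.6 RPKM in Cdc42+/- mice and 118 and 144 RPKM in Cdc42-/- mice. The 3 genotypes did not overlap, and the Cdc42-/- mean was 18.4-fold the WT mean (log2 fold change 4.02, SE 0.18, limma adjusted p 0.00135). On this log2(RPKM + 1) scale it had the largest change of the 54 genes, but not in ratio of means, in which Kif14, given below, was highest. Top2a, the topoisomerase that untangles sister chromatids, went from 12.3 and 13.8 RPKM through 37.44 and 34.002 RPKM to 138 and 203 RPKM (3.58, SE 0.19, adjusted p 0.00144), the highest level in Cdc42-/- among the members that rose.

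The genes of the anaphase-promoting pathway moved in opposite directions. Ube2c, the ubiquitin-conjugating enzyme of the complex, was at 7.42 and 6.27 RPKM in WT mice, 20.02 and 20.6 RPKM in Cdc42+/- mice and 71.8 and 104 RPKM in Cdc42-/- mice, with a log2 fold change of 3.48 (SE 0.19) against WT. Cdc20, its activator, was at 3.06 and 2.23 RPKM, 11.1 and 8.19 RPKM, and 34.4 and 55.1 RPKM, a 16.9-fold difference between Cdc42-/- and WT. Both rose against WT (limma adjusted p 0.00144 and 0.00182), as did Espl1 (separase) and Sgol1 (shugoshin, which protects centromeric cohesion). Pttg1, the securin that holds separase inactive until anaphase, did not follow them. It stood at 15.3 and 15.4 RPKM in WT mice, 14.7 and 15.7 RPKM in Cdc42+/- mice and 10.1 and 9.34 RPKM in Cdc42-/- mice, where both libraries were below the others. Its log2 fold change was -0.61 (SE 0.12, limma adjusted p 0.0304) against WT and -0.59 (SE 0.12, adjusted p 0.0402) against Cdc42+/-. These calls held in 5 and 4 of 13 alternatives, with adjusted p between 0.00962 and 0.173 and between 0.0116 and 0.315. The ratio of Pttg1 to Espl1 in RPKM was 13.1 and 20.9 in WT mice, 4.59 and 6.14 in Cdc42+/- mice, and 0.791 and 0.593 in Cdc42-/- mice. Espl1 itself was at 1.17 and 0.740 RPKM in WT mice, from 123 and 42 reads. It was at 3.19 and 2.55 RPKM in Cdc42+/- mice and 12.7 and 15.7 RPKM in Cdc42-/- mice. Its log2 fold change against WT, 2.96, was larger in size than that of Pttg1.

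**Figure D3:**
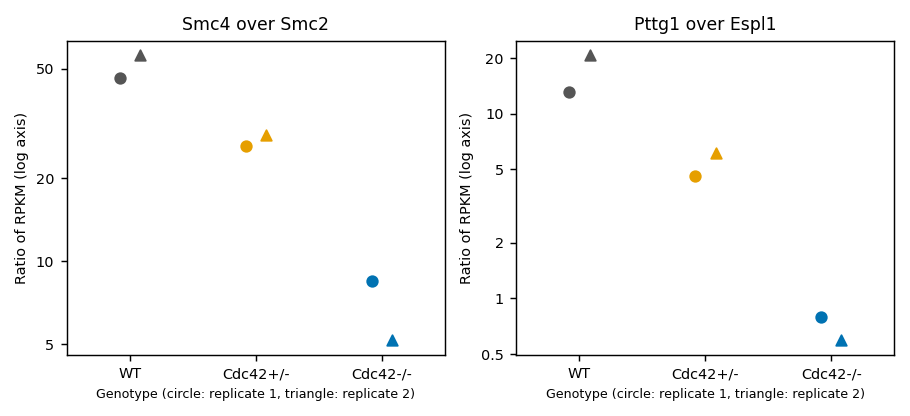
Ratio of the RPKM of Smc4 to that of Smc2 (left) and of Pttg1 to Espl1 (right) in each library, on log axes, by genotype, with circles for replicate 1 and triangles for replicate 2. Both ratios are highest in WT and lowest in Cdc42-/-, where Pttg1 lies below Espl1 (0.791 and 0.593).

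All 4 members of the chromosomal passenger complex, which corrects faulty attachments and positions the cleavage furrow, rose in Cdc42-/- against WT and against Cdc42+/-. Its kinase Aurkb was at 2.53 and 2.08 RPKM in WT mice, 8.59 and 8.43 RPKM in Cdc42+/- mice and 36.9 and 55.2 RPKM in Cdc42-/- mice (3.81, SE 0.21, limma adjusted p 0.00144). Its scaffold Incenp started from a higher level, 11.5 and 12.3 RPKM, and reached 22.9 and 18.6 RPKM and then 48.2 and 67.0 RPKM, 4.85-fold above WT (2.17, SE 0.19, adjusted p 0.00231). Birc5 (survivin) and Cdca8 (borealin) lay between them in log2 fold change, at 3.17 and 3.80. The related kinase Aurka, which acts at the spindle poles, had a ratio to Aurkb of 1.09 and 0.867 in WT mice, 0.619 and 0.527 in Cdc42+/- mice and 0.453 and 0.489 in Cdc42-/- mice.

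Of the other kinases of the spindle pole and centrosome, Plk1, which drives entry into mitosis and spindle assembly, was at 2.33 and 3.59 RPKM in WT mice, 9.54 and 8.35 RPKM in Cdc42+/- mice and 27.9 and 40.1 RPKM in Cdc42-/- mice (3.14, SE 0.24, limma adjusted p 0.00182). Plk4, which starts centriole duplication, differed from the common order. Its levels were 4.42 and 5.27 RPKM in WT mice and 5.13 and 4.29 RPKM in Cdc42+/- mice, with overlap, and 14.7 and 21.1 RPKM in Cdc42-/- mice. It rose in Cdc42-/- by a log2 fold change of 1.68 against WT (SE 0.21, adjusted p 0.00701, range over 13 alternatives 0.000778 to 0.0743) and 1.71 against Cdc42+/- (SE 0.21, adjusted p 0.0117, range 0.000975 to 0.142).

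The 5 spindle checkpoint genes rose in Cdc42-/- against both other genotypes, over a wide range. Bub1, a kinase at the kinetochore, was at 0.876 and 0.0775 RPKM in WT mice, from 63 and 3 reads, at 2.88 and 2.64 RPKM in Cdc42+/- mice and at 9.88 and 17.2 RPKM in Cdc42-/- mice (3.31, SE 0.36, limma adjusted p 0.00423). Its 28.4-fold ratio of means is therefore loosely measured, with a WT replicate 2 that rests on 3 reads. Bub3, which binds Bub1 and Bub1b and also works outside mitosis, was the most abundant of the checkpoint genes in WT and the least changed: 36.2 and 36.6 RPKM in WT mice, 40.2 and 38.8 RPKM in Cdc42+/- mice and 55.1 and 64.2 RPKM in Cdc42-/- mice. Its log2 fold change was 0.69 against WT (SE 0.11, adjusted p 0.0152), a call that held in 8 of 13 alternatives (0.00108 to 0.121), and 0.58 against Cdc42+/- (adjusted p 0.0338, 0.00225 to 0.272). Bub1b, Mad2l1 and Ttk had log2 fold changes of 2.86, 2.05 and 2.72 against WT.

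The 6 CENP genes encode proteins of the centromere and of the inner and outer kinetochore, and all rose against WT and 5 against Cdc42+/-. Cenpa, the histone H3 variant that marks the centromere, was at 12.96 and 14.6 RPKM in WT mice, 23.9 and 24.1 RPKM in Cdc42+/- mice and 47.4 and 66.0 RPKM in Cdc42-/- mice, 4.11-fold above WT (1.95, SE 0.17, limma adjusted p 0.00248). Cenpe, a kinesin of the kinetochore, started lower, at 1.03 and 1.51 RPKM, and reached 16.01 and 22.8 RPKM in Cdc42-/- mice (3.15, SE 0.22, adjusted p 0.00173). Cenpm was less firmly placed. Its WT libraries held 18 and 27 reads, at 0.803 and 2.24 RPKM, and overlapped Cdc42+/- (1.80 and 1.72 RPKM), with 6.23 and 8.55 RPKM in Cdc42-/- mice. Its call against WT (1.78, SE 0.32, adjusted p 0.0221) held in 8 of 13 alternatives (0.00690 to 0.0982). Cenph, named after its values were seen, rose against WT (2.33, SE 0.48, adjusted p 0.0331, a call held in 6 of 13 alternatives, 0.000818 to 0.202) and was short of the threshold against Cdc42+/- (1.75, SE 0.48, adjusted p 0.0806, range 0.00212 to 0.403): its Cdc42-/- libraries stood at 8.90 and 25.4 RPKM, the largest ratio between these 2 libraries among the 54 genes, against 4.84 and 2.95 RPKM in Cdc42+/- mice.

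In the outer kinetochore, Ndc80, Nuf2, Spc24 and Spc25 form the complex that grips microtubules, and all of them rose against WT. Ndc80 went from 3.54 and 2.71 RPKM through 9.68 and 7.45 RPKM to 24.5 and 30.5 RPKM (2.79, SE 0.20, limma adjusted p 0.00173). Nuf2, its partner, went from 1.91 and 1.70 RPKM through 5.66 and 4.79 RPKM to 19.4 and 32.4 RPKM (3.22, SE 0.26, adjusted p 0.00195). Knstrn, a regulator of separation at the kinetochore, had the smallest change of this set, from 2.32 and 2.02 RPKM through 5.60 and 5.17 RPKM to 13.8 and 18.6 RPKM (2.43, SE 0.19, adjusted p 0.00195). Spc25 did not pass against Cdc42+/- (1.46, SE 0.44, adjusted p 0.0974, range 0.0120 to 0.392). It had a single read in WT replicate 2 and 41 in WT replicate 1, with 2.90 and 3.30 RPKM in Cdc42+/- mice and 7.03 and 14.8 RPKM in Cdc42-/- mice.

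All 11 mitotic kinesins rose against WT and against Cdc42+/-, with log2 fold changes of 1.80 to 3.63 and of 1.37 to 2.20. Kif11, the motor that pushes the spindle poles apart, had the highest mean level over the 6 libraries, at 3.19 and 3.66 RPKM in WT mice, 14.4 and 10.7 RPKM in Cdc42+/- mice and 43.1 and 67.1 RPKM in Cdc42-/- mice, 16.1-fold above WT (limma adjusted p 0.00144). Kif22 was at 5.39 and 4.24 RPKM, 15.0 and 13.9 RPKM, and 39.4 and 54.8 RPKM, above Kif11 in WT. Kif18a, which dampens chromosome movement at the metaphase plate, had the smallest log2 fold change on this scale, although the ratio of means was smaller for Kif20b (4.79 against 5.31). Its levels of 1.70 and 0.936 RPKM in WT mice lay close to or under the 2.53 and 1.68 RPKM of Cdc42+/-, with overlap, and reached 6.31 and 7.67 RPKM in Cdc42-/- mice (1.80, SE 0.26, adjusted p 0.0110, range 0.00398 to 0.0865). The largest ratio of means in the whole group, 34.9-fold, belonged to Kif14, which works in cytokinesis and rested on 41 and 9 reads in WT mice. Kif4, the X-linked member and a motor of chromosome arms and the midzone, was at 1.07 and 0.669 RPKM in WT mice, 3.84 and 2.67 RPKM in Cdc42+/- mice and 16.6 and 20.5 RPKM in Cdc42-/- mice. The part of sex-linked expression in its level was not tested.

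The cytokinesis genes rose by similar amounts, with log2 fold changes between 2.59 and 2.94 against WT. Racgap1, which with Kif23 forms centralspindlin at the midzone, was at 7.48 and 8.23 RPKM in WT mice, 16.7 and 13.9 RPKM in Cdc42+/- mice and 55.8 and 66.7 RPKM in Cdc42-/- mice (2.81, SE 0.15, limma adjusted p 0.00144). Prc1, which bundles the midzone microtubules, was at 3.54 and 4.09, 9.55 and 7.83, and 29.5 and 43.4 RPKM (2.94, SE 0.22). Ect2, the exchange factor that activates RhoA at the furrow and can act on Cdc42, was at 1.37 and 1.62, 3.94 and 2.84, and 11.4 and 17.2 RPKM (2.59, SE 0.25, adjusted p 0.00320). In all of these the 3 genotypes were apart.

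The spindle assembly factors also rose without exception against both genotypes. Nusap1, which bundles spindle microtubules, was at 2.31 and 3.43 RPKM in WT mice, 8.41 and 7.72 RPKM in Cdc42+/- mice and 29.4 and 43.6 RPKM in Cdc42-/- mice (3.26, SE 0.24, limma adjusted p 0.00173). Tpx2, the activator of Aurka, was at 1.45 and 1.99, 6.13 and 5.65, and 21.5 and 31.7 RPKM (3.33, SE 0.23). Hmmr, a spindle pole protein, changed least of the 4, from 4.08 and 4.03 RPKM through 7.28 and 6.26 RPKM to 17.0 and 24.4 RPKM (2.08, SE 0.20, adjusted p 0.00327).

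Of the 5 condensin genes, 4 rose against both other genotypes and Smc4 did not pass. Smc2 and Smc4 are the paired ATPase arms of the complex, and Ncapg, Ncapd2 and Ncaph are its condensin I subunits. Ncaph, the kleisin that closes the ring, was at 1.94 and 4.94 RPKM in WT mice, 8.13 and 7.09 RPKM in Cdc42+/- mice and 28.8 and 39.6 RPKM in Cdc42-/- mice (3.06, SE 0.34, limma adjusted p 0.00467). Smc4 was by far the most abundant of the 54 genes and the one that passed in no comparison. It stood at 374 and 399 RPKM in WT mice, 350 and 346 RPKM in Cdc42+/- mice and 302 and 241 RPKM in Cdc42-/- mice, so that the genotypes did not overlap and WT was highest. The change of Smc4 was -0.52 on the log2 scale (SE 0.14, limma adjusted p 0.0630), and 2 of 13 alternatives, those without a Cdc42-/- library, put it past the threshold (range 0.00148 to 0.293). Smc4 ranked 123 and 114 by RPKM among all genes in WT mice and supplied most of the reads of the group there: without it, the other 53 genes took 0.0749% and 0.0775% of WT reads, 0.185% and 0.159% of Cdc42+/- reads and 0.578% and 0.798% of Cdc42-/- reads. The ratio of Smc4 to Smc2 in RPKM was 46.3 and 56.0 in WT mice, 26.1 and 28.8 in Cdc42+/- mice and 8.44 and 5.16 in Cdc42-/- mice, with Smc2 itself rising by a log2 fold change of 2.29 (SE 0.17). The microRNA genes Mir15b and Mir16-2 lie within Smc4.

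The members that changed least were thus among the most abundant in WT: Smc4, Bub3 and Pttg1 had the highest WT levels of the 54 genes, at 386 ± 17.7, 36.4 ± 0.229 and 15.3 ± 0.121 RPKM (mean ± SD, n = 2). Members with the next highest WT levels, Cenpa, Top2a, Ncapd2 and Incenp, between 11.9 and 13.8 RPKM, rose with log2 fold changes of 1.95 to 3.58. Ratios of mean RPKM between Cdc42-/- and WT ran from 0.632 for Pttg1 to 34.9 for Kif14, with a median of 11.4 over the members. The largest are loosely measured: those of Kif14 and Kif18b (33.0) rested on WT means of 0.22 and 0.50 RPKM. The ratios of all genes tested were not taken.

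Replicates differed in level. In Cdc42-/-, replicate 2 was above replicate 1 in 52 of 54 genes, where 53.8% of all genes tested were, with a median ratio of 1.44 over the members. In Cdc42+/-, it was above in 5 of 54, where 49.9% of all genes were, with a median ratio of 0.873. The median SD of a member on the log2 scale was 0.35 in Cdc42-/- mice, 0.12 in Cdc42+/- mice and 0.15 in WT mice. Over all genes tested it was 0.216, 0.0835 and 0.115, also largest in Cdc42-/-. Replicate 2 of Cdc42-/-, with the higher levels, is the library with the myeloid, granulocyte and erythroid markers. In replicate 1 the summed myeloid markers, at 68.6 RPKM, and plasma cell markers, at 18.2 RPKM, were in the range of the WT and Cdc42+/- libraries, while the erythroid markers, at 7.23 RPKM, were above their range there of 1.17 to 2.70 RPKM. Most of that myeloid sum was Cst3, at 48.5 RPKM, and 5 of the 9 myeloid markers were above every WT and Cdc42+/- library: Lyz2 at 9.75 RPKM, Mpeg1 at 2.86, Itgam at 1.74, Csf1r at 0.933 and Adgre1 at 0.446. Its Treg and CD4 T cell markers, at 1167 RPKM in sum, were below all WT and Cdc42+/- libraries (1254 to 1395 RPKM), with Cd3e at 237 RPKM against 372 to 395 RPKM, Ikzf2 at 82.9 RPKM against 125 to 137 RPKM and Cd4 at 172 RPKM against 185 to 219 RPKM. Ctla4, at 202 RPKM, was above every one of those libraries (130.03 to 157 RPKM), and Foxp3, Il2ra and Tnfrsf18 were within their range. Of the plasma cell markers, Prdm1, at 15.1 RPKM, was above every WT and Cdc42+/- library. Jchain, at 0.946 RPKM, was below every one of them (9.17 to 89.0 RPKM), and Mzb1 was at 0. The part of these differences in the level of the members was not tested. The median member was at 19.0 RPKM in this library. The plasma cell markers were at 15.8 and 17.5 RPKM in WT mice, 98.7 and 78.2 RPKM in Cdc42+/- mice and 159 RPKM in Cdc42-/- replicate 2, and their part in the Cdc42+/- levels was not tested.

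**Figure D4:**
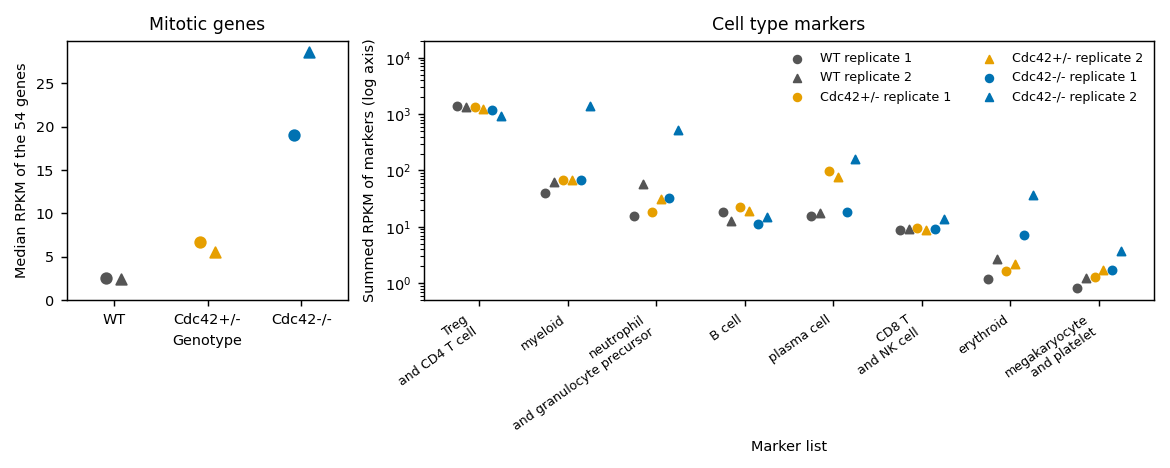
Left, median RPKM of the 54 genes in each library by genotype. Right, summed RPKM of the measured markers of 8 cell types on a log axis, with colour for genotype and circles and triangles for replicates 1 and 2. Replicate 2 of Cdc42-/- holds 1381 RPKM of myeloid markers against at most 69.2 RPKM elsewhere, while replicate 1 of Cdc42-/- has a median of 19.0 RPKM of mitotic genes.

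Other genes of mitosis were divided between those that moved with the 54 genes and those that did not. In Cdc42-/- against WT, 21 of 29 other kinetochore and centromere genes rose and none fell, where 6.86% of all genes tested rose and 4.57% fell, with a median log2 fold change of 1.28. Fewer passed with either WT library left out, 6 of the 29, where 2.12% and 2.14% of all genes passed, and with either Cdc42+/- library left out, 12 of the 29, where 4.47% and 4.5% did. The same shares of all genes apply to the counts of the next 3 lists. Knl1, the platform of the outer kinetochore, had the largest change on the log2(RPKM + 1) scale (3.19, SE 0.29, limma adjusted p 0.00253), and Cenpq, an inner kinetochore subunit, the lowest (-0.17, adjusted p 0.402). Of 34 other spindle, centrosome and cytokinesis genes 22 rose and 1 fell, with a median of 1.26, and 15 passed with either WT library left out. Cdca3, which helps entry into mitosis, rose most on that scale (3.69, SE 0.28, adjusted p 0.00187), and Haus3, a subunit of the augmin complex, fell from 50.5 and 48.9 RPKM in WT mice to 27.6 and 36.3 RPKM (-0.63, SE 0.15, adjusted p 0.0489, 0.00344 to 0.218 over the alternatives, lost without any one WT or Cdc42+/- library).

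Cohesin and the remaining condensin genes moved least, with 8 of 16 higher and a median of 0.51, and 3 or 4 passed with WT replicate 1 or 2 left out and 4 with either Cdc42+/- library left out. Cdca5 (sororin), which stabilises cohesin, was at 1.25 and 0.674 RPKM in WT mice and 15.6 and 23.4 RPKM in Cdc42-/- mice (3.37, SE 0.27, limma adjusted p 0.00201), whereas Esco1, an acetyltransferase of cohesin, stayed between 21.5 and 29.4 RPKM in all libraries (-0.19, adjusted p 0.423). Of 32 genes of mitotic entry and exit, 17 rose and none fell, with a median of 0.87, and 8 and 10 passed with WT replicate 1 or 2 left out. Ccna2, the cyclin of S phase and mitotic entry, was at 2.46 and 3.16 RPKM in WT mice, 13.8 and 11.7 RPKM in Cdc42+/- mice and 53.8 and 80.5 RPKM in Cdc42-/- mice (4.14, SE 0.22, adjusted p 0.00144). Lin52, a MuvB subunit, had the lowest change of that list (-0.34, adjusted p 0.345). No gene of these 4 lists passed in Cdc42+/- against WT in the fit of all 6 libraries (limma), although some did under an alternative, with lowest adjusted p of 0.00602 for Ccna2, 0.0192 for Cdca3 and 0.0380 for Cdca5 and a highest of 1.0 for each. At an unadjusted p under 0.05 there were 7 of 29, 15 of 34, 4 of 16 and 10 of 32 in the order given, where 4.32% of all genes had such a p. The differences between these lists and the 54 genes were not tested.

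**Figure D5:**
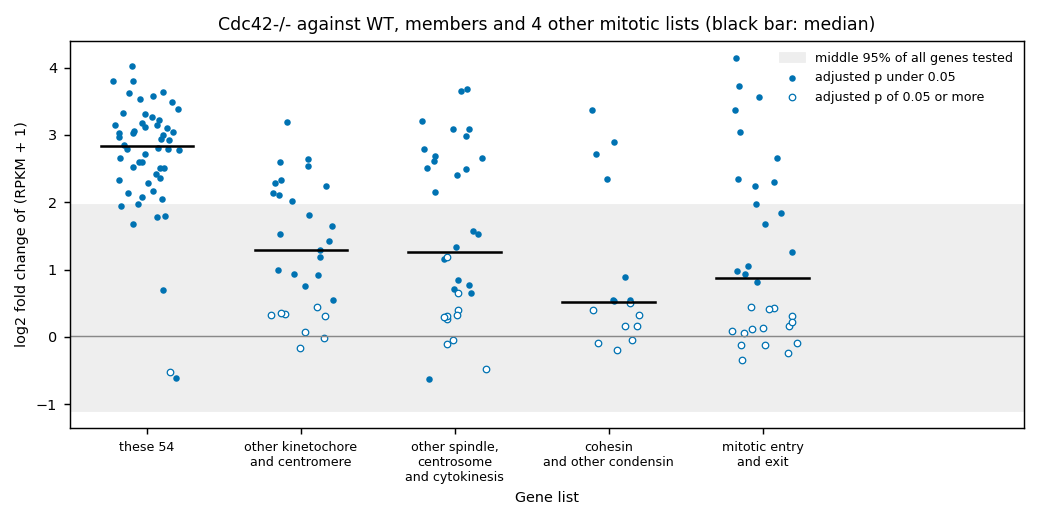
Fitted log2 fold change of (RPKM + 1) in Cdc42-/- against WT for the 54 genes and the 4 other lists of mitotic genes, with 1 point per gene, filled where the adjusted p is under 0.05, a black bar at each list's median and a grey band for the middle 95% of all genes tested (-1.10 to 1.95). The medians are 2.83 for the 54 genes and 1.28, 1.26, 0.51 and 0.87 for the other lists.

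Annotated neighbours could share reads with some members, since the strand setting of the counting is not given in the sources used here. By RefSeq, 9 of the 54 genes overlap another protein-coding gene. Cdc20 overlaps Elovl1 (0.50 on the log2 scale in Cdc42-/- against WT, limma adjusted p 0.0430), and Nusap1 overlaps Oip5 (2.33, adjusted p 0.00482). Neighbours of the other 7, such as Cstf1 beside Aurka (0.13, adjusted p 0.486), did not pass the threshold.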

How the data were processed

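The deposited data are 2 tables, one per knockout genotype against WT, of 14608 genes each. The submitters' processing notes name TopHat and mm10, with no version, and the counting tool, annotation and strand setting are not given in the sources used here. The authors' per-library values are RPKM, worked out from the deposited values. The deposited tables further give group means, per the file headers, which the values show to be a signal (reads over a size factor, averaged by the authors), and the authors' fold change, log2 fold change, p-value and adjusted p-value. RPKM and group means together gave back whole reads: 100% of values in each library were within 0.01 of a whole number.

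The deposited RPKM values were analysed with limma 3.58.1 (R 4.3.3) on log2(RPKM + 1), keeping the 12233 genes whose average over the 6 libraries was 0.5 RPKM or more, by genotype in 1 fit of 6 libraries, with Benjamini-Hochberg adjustment. The design allowed for counts or RPKM and the RPKM form was used. The script was tested on simulated data. Replicates differed by more than sampling noise (chi-square per gene 6.17 to 43.0), and nothing in the labels says that replicates were separate mice beyond the number of mice in the design, so p-values measure the spread between these libraries. Depth limits members with few reads, as given beside them. Members and lists were chosen with earlier results of these data known. Within each of 11 roles, the members with the highest mean level and the highest and lowest change in Cdc42-/- against WT were named, with those short of the threshold, the 3 smallest p in Cdc42+/-, Mki67, and the extremes of each other list. Any other member given with values was chosen after its values were seen. Marker lists covered Treg, myeloid, granulocyte, B, plasma, CD8 T and NK, erythroid and megakaryocyte cells. The summed B cell markers were between 11.0 and 22.1 RPKM, CD8 T and NK markers between 8.72 and 13.8 RPKM, and the single megakaryocyte marker between 0.841 and 3.66 RPKM. Alternatives changed the scaling, pseudocount, filter, libraries, block, weights and test.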

Additional observations from a re-analysis of the deposited data

How the results depend on the processing

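In Cdc42-/- against WT, 52 members had a log2 fold change above 0 under all 13 alternatives, and the count of members passing in either direction stayed within 1.5 times the reported 53, with 43 to 54 without 1 library, where 2.12% to 36.2% of all genes passed. Its median log2 fold change was 3.39 with a pseudocount of 0.1 RPKM and 3.46 with voom on the recovered reads, and 2.65 to 3.10 without 1 library. In Cdc42+/- against WT these 2 settings gave medians of 1.27 and 1.35, and 0.87 to 1.12 without 1 library. The members called there were 11 with only the 2 genotypes compared, 23 with array weights and 0 to 17 without 1 library. In Cdc42-/- against Cdc42+/- 0 to 54 members passed without 1 library, where 0% to 34.8% of all genes did, and the medians were 1.57 to 2.10. With only the 2 genotypes compared, 12 of the other kinetochore and centromere genes and 4 of the cohesin and other condensin genes passed against WT, where 4.38% of all genes did, and 5 of the latter with array weights, where 7.23% did. Without 1 library (2.12% to 36.2% of all genes, as above) these counts were 6 to 22 and 3 to 10, those of the other spindle, centrosome and cytokinesis genes 15 to 26, and those of the mitotic entry and exit genes 8 to 19. The cause was not tested.

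All 4 changes of sign were in Cdc42+/- against WT and short of the threshold: Cenpm was -0.23 without WT replicate 1 (-0.23 to 0.61 without 1 library), Plk4 was 0.072 without WT replicate 2 and 0.074 without Cdc42+/- replicate 2 (-0.14 to 0.074), and Pttg1 was 0.027 without Cdc42+/- replicate 1 (-0.063 to 0.027). The titles give the genotypes the same replicate numbers, with no statement that a number pairs mice. Differences between replicates correlated across genes at 0.02, 0.20 and -0.03 for the 3 pairs of genotypes, so the numbers were not taken as a pairing. With the replicate number as a block, 51, 48 and 0 members passed in Cdc42-/- against WT, against Cdc42+/- and in Cdc42+/- against WT, where 9.35%, 6.61% and 0% of all genes did, and the medians stayed 2.83, 1.85 and 1.01.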
